A study of Drosophila melanogaster with 62 samples.

Results

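The fat body of female Drosophila melanogaster larvae reared on a high-sugar diet, 0.7 M sucrose, was compared with that of larvae of the same genotype reared on a control diet, 0.15 M sucrose. Both groups carried UAS-Dcr2, a Dicer-2 transgene on the X chromosome, and r4-GAL4, a fat body driver, and descended through their fathers from stock 60100 of the Vienna Drosophila Resource Center (VDRC). They held no RNAi hairpin and served as the controls of an RNAi experiment, so both diets share the driver and the transgene, and neither group is an unmodified wild type. The comparison was chosen by the labels for genotype, sex, role and diet, and it holds 8 of the 62 samples of the series, 4 per diet. All were wandering larvae of the third instar, raised on a modified Bloomington semi-defined food. Their fat bodies were floated, that is, freed by shearing and separated by centrifugation, and ribosomal RNA was removed with RiboZero before sequencing. The labels do not say how many larvae made up a library or whether libraries came from separate animals, so p-values measure only the spread between libraries, which may be technical. Per the labels, the series was made to measure how diet and the knockdown of transcription factors change gene expression in the fat body.

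The larval fat body does the work of both liver and adipose tissue. It turns dietary sugar into triglyceride, glycogen and the blood sugar trehalose, secretes hexamerins that feed metamorphosis, releases immune peptides and sends nutrient signals to the brain and other organs. Wandering larvae have stopped feeding and are under rising ecdysone, the steroid that starts metamorphosis. Diets rich in sucrose delay fly larvae and are used as a model of obesity and insulin resistance.

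Levels are scaled FPKM, fragments per kilobase of transcript apparently after a rescaling, since 2464 genes stood at 1 or more in each of the 8 libraries, so a level is relative to the other genes of its library. A change is the difference of mean log2 (scaled FPKM + 1), 0.7 M minus 0.15 M, with its standard error, over 4 libraries per diet and with a spread pooled over the 31 libraries of the same experiment. A gene was called, and is said to have risen or fallen, at an adjusted p under 0.05 in limma. Library numbers follow column order and are names only. If the lowest values stand for 1 fragment, a level of 1 in a transcript of 1 kb rested on 12.6 to 15.8 fragments at 0.7 M and on 10 to 20 at 0.15 M, so levels near 1 are coarse. Correlations of log2 levels left out genes that averaged under 1. They were 0.937 to 0.987 within the 0.7 M libraries, 0.947 to 0.989 within the 0.15 M libraries and 0.892 to 0.963 between diets. Among the genes named below, library 2 of each diet stood apart from its group more often than the other libraries did. Most counts of calls below are also given without both of these libraries, a setting chosen after seeing the data.

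The tissue was checked against marker genes. The 9 fat body markers, among them the hexamerins and the fat body proteins Fbp1 and Fbp2, summed to 12221, 9445, 11466 and 13120.2 scaled FPKM at 0.7 M and to 14262, 13910.2, 13993 and 14959 at 0.15 M. Every library was rich in fat body RNA, and every 0.7 M library lay below every 0.15 M library. Markers of other tissues were also present. The 22 muscle markers summed to 67.9, 53, 93.99 and 30.4 scaled FPKM at 0.7 M, against 24.3, 16.6, 23.4 and 25.6 at 0.15 M, so that all 0.7 M libraries were above all 0.15 M libraries, with 0.7 M library 4 the nearest to them. Of 10 tested muscle markers 8 rose and 0 fell, against 18.7% and 12.4% of all tested genes. The rise held for 4 of them whichever library was left out, and 6 rose without both library 2s. TpnC41C and fln were listed at 0 in all 8 libraries. The 33 gut markers summed to 200.5, 95.4, 194 and 206 scaled FPKM at 0.7 M and 129, 10.5, 176 and 38.3 at 0.15 M. These sums overlapped, and the 0.15 M libraries ranged from 10.5 in library 2 to 176 in library 3. Of 21 tested gut markers 10 rose and 0 fell, against the same shares of all tested genes. Of these rises 9 held in every leave-out, and 7 genes rose without both library 2s. With the muscle level of each library as a covariate limma called 0, with 3 at an unadjusted p under 0.05. Jon44E, LvpD and lambdaTry were listed at 0 throughout. With that covariate and the muscle markers left out, 105 of 2511 genes were called (55 higher and 50 lower), so for most calls the diet and the muscle marker level cannot be told apart in these libraries. In bulk RNA, fewer cells of a type and less RNA per cell cannot be told apart either.

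**Figure D1:**
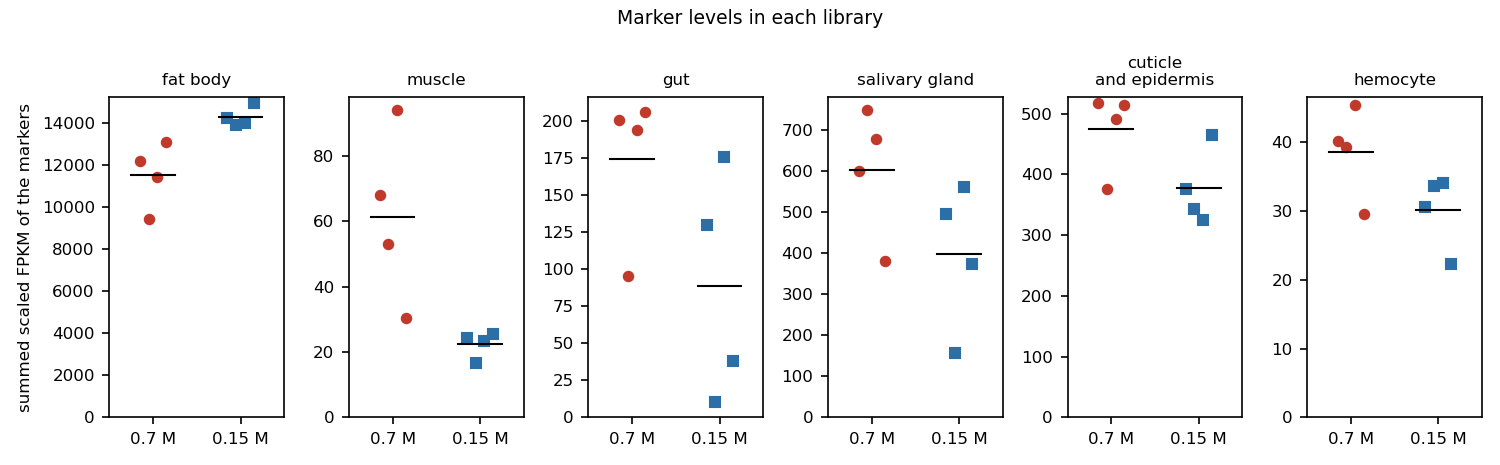
Summed scaled FPKM of the marker genes of 6 tissues (vertical axis, from 0 in each panel) in each library, 0.7 M left and 0.15 M right; each point is 1 library and the bar is the mean of 4. Muscle sums were 30.4 to 93.99 at 0.7 M and 16.6 to 25.6 at 0.15 M, fat body sums were lower in all 4 libraries at 0.7 M, and gut, salivary gland, cuticle and hemocyte sums overlapped between diets.

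Mlc2, a myosin light chain, had 17.9, 13.4, 26.5 and 6.43 scaled FPKM at 0.7 M, against 2.99, 2.203, 3.71 and 2.61 at 0.15 M. The groups did not overlap, and the change was 2.0 ± 0.34 (adjusted p = 0.00017). Mlp60A, a muscle LIM protein, changed by 1.52 ± 0.41 (adjusted p = 0.0071) and Tm2, a tropomyosin, by 0.98 ± 0.24 (adjusted p = 0.0045). Among gut proteases, Jon66Ci had 7.67, 7.49, 11.3 and 2.52 scaled FPKM at 0.7 M, against 0.715, 0.147, 0.876 and 0.784 at 0.15 M. It rose by 2.23 ± 0.45 (adjusted p = 0.00083), with 0.7 M library 4 the lowest of its group. Jon99Cii and its near-identical copy Jon99Ciii, between which reads can be split, rose by 2.06 ± 0.56 (adjusted p = 0.0074) and 2.05 ± 0.55 (adjusted p = 0.0074). Salivary gland markers summed to 602, 751, 678 and 383 scaled FPKM at 0.7 M, against 497, 156.5, 562 and 374 at 0.15 M, which overlap, and 1 of 6 tested rose, also without both library 2s. That gene, ng3, a glue gene, had 2.11, 0.473, 2.59 and 1.02 scaled FPKM at 0.7 M and was listed at 0 in each 0.15 M library, and the call was lost without 0.7 M library 1 or 3 (adjusted p = 0.055 to 0.076). Of 13 tested cuticle genes of 122 in the list 4 rose, 1 of them in every leave-out and 1 without both library 2s, and 88 were listed at 0 throughout. Of 3 tested hemocyte markers 0 were called in limma, and 1 had an unadjusted p under 0.05. Hemocyte sums were 40.2, 39.3, 45.3 and 29.5 at 0.7 M and 30.5, 33.6, 33.99 and 22.2 at 0.15 M. Among nervous system markers fax, of 2 tested, changed by -0.41 ± 0.14 (adjusted p = 0.033), and the call was lost without 0.7 M library 2 or 3 or 0.15 M library 4 (adjusted p = 0.069 to 0.13). No marker of germ line, imaginal disc, trachea or oenocyte reached the filter, a mean of 1 over the 31 libraries. The 8 tracheal markers nevertheless summed to 1.205, 1.16, 1.18 and 1.51 scaled FPKM at 0.7 M, against 3.001, 3.92, 2.82 and 3.16 at 0.15 M. The 7 imaginal disc markers summed to 0.495, 0.204, 0.214 and 0.477 at 0.7 M, against 0.821, 1.68, 0.898 and 1.21 at 0.15 M. Both sums were lower in every 0.7 M library, and with no filter 7 of 8 and 6 of 7 of these genes were called lower, in a fit that called 1832 of 9851 genes lower. Their part in the results was not tested. The genes vas, nanos, bam, aub, zpg, desat2 and eloF were listed at 0 in all 8 libraries.

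Across the transcriptome, 784 of 2521 tested genes differed between the diets, which is 31.1%, with 471 higher (18.7%) and 313 lower (12.4%) at 0.7 M. Most changes were small. Among the risen genes 77 changed over 2-fold and 10 over 4-fold on the fitted scale, and among the fallen genes 40 and 1. The libraries of the diets did not overlap in 637 tested genes (25.3%), 405 of them higher (16.1%) and 232 lower (9.2%) at 0.7 M. The median change of all tested genes was 0.11. Calls were tested against no change, not against this median. Counts of calls in the gene lists, markers included, stand against 18.7% higher and 12.4% lower among all tested genes. Of the 784 calls 410 (52.3%) held whichever of the 8 libraries was left out, 251 higher and 159 lower. Without both library 2s, 480 genes were called, 289 higher and 191 lower, and the count was 515 without 0.7 M library 2, 518 without 0.7 M library 3 and 1003 without 0.7 M library 4. Fallen genes had longer transcripts (median 2022 nt) than risen genes (1432 nt) or all tested genes (1443 nt). Removing each library's trend on transcript length gave 406 higher and 400 lower calls, and rescaling by median ratios, which moved the median change to 0.20, gave 677 higher and 208 lower.

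**Figure D2:**
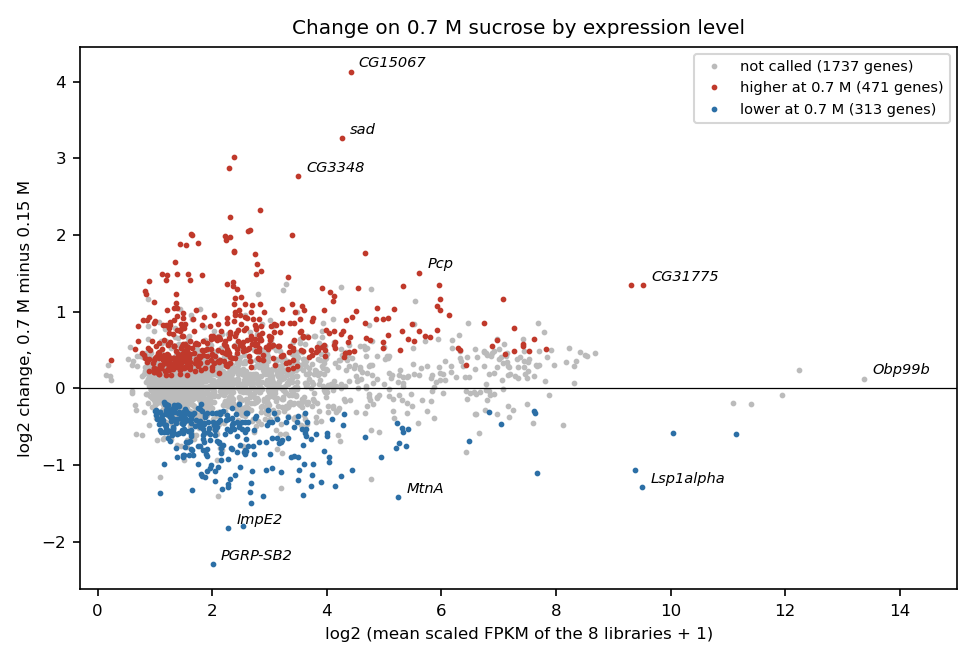
Change at 0.7 M against 0.15 M (vertical axis, log2 scale) by mean level of the 8 libraries (horizontal axis, log2 scale); each point is 1 of the 2521 tested genes, red if called higher, blue if called lower at 0.7 M. The largest rises were CG15067 (4.13) and sad (3.26), ImpE2 lies low among the falls (-1.82) with PGRP-SB2, which was listed at 0 in every 0.7 M library, below it, and the most abundant gene, Obp99b, was not called (change 0.13).

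Of the 20 largest rises among well-expressed genes, 5 were gut proteases (Jon66Ci, Jon99Cii, Jon99Ciii, Jon25Biii and alphaTry) and 2 were muscle genes (Mlc2 and Mlp60A). The others included immune peptides, a steroid enzyme, chitin-binding proteins and genes of unknown function. CG15067, the Bomanin BomBc2, a peptide that the Toll pathway induces, had 34.5, 61.9, 38.6 and 22.1 scaled FPKM at 0.7 M, against 0.615, 3.15, 0.619 and 1.01 at 0.15 M. It rose by 4.13 ± 0.54 (adjusted p = 5.4e-06), with 0.15 M library 2 above the others of its diet. Another Bomanin, CG18107, overlaps CG15067 on the opposite strand and was at most 0.981 scaled FPKM in any library. CG3348 had 19.1, 15.5, 19.5 and 19.7 scaled FPKM at 0.7 M, against 2.85, 0.761, 3.27 and 1.23 at 0.15 M, and rose by 2.77 ± 0.34 (adjusted p = 2.6e-06). Hmu, on the opposite strand, changed by -0.55 ± 0.21 (adjusted p = 0.051). The chitin-binding obst-J had 10.2, 13.6, 12.3 and 7.47 scaled FPKM at 0.7 M, against 1.22, 1.61, 1.16 and 1.297 at 0.15 M. Its groups were far apart, with a change of 2.33 ± 0.17 (adjusted p = 3.8e-10). CG3868 had 7.19, 4.69, 7.96 and 6.17 scaled FPKM at 0.7 M, against 1.09, 0.517, 1.28 and 0.917 at 0.15 M (change 1.94 ± 0.18, adjusted p = 1.7e-08). For CG14265 the high-sugar libraries held 11.3, 1.79, 10.8 and 9.63 scaled FPKM and each control-diet library was listed at 0 (adjusted p = 0.0002). CG13947 likewise had 10.7, 1.44, 12.2 and 6.704 at 0.7 M and was listed at 0 in each library at 0.15 M (adjusted p = 0.0002), and library 2 was the lowest for both. CG14265 lies inside dnc on the opposite strand, and dnc was at most 0.157 in any library.

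The largest falls included a peptidoglycan receptor, an ecdysone-induced gene, a metallothionein, a hexamerin and genes of chromatin and the cell surface. Act42A, a cytoplasmic actin, had 2.25, 1.45, 2.92 and 3.77 scaled FPKM at 0.7 M, against 6.97, 9.19, 6.95 and 8.78 at 0.15 M. No library of 1 diet reached the range of the other, and the change was -1.35 ± 0.37 (adjusted p = 0.0074). HmgD, a DNA-bending chromatin protein, had 0.688, 5.34, 3.43 and 4.05 scaled FPKM at 0.7 M, against 9.98, 10.04, 9.44 and 8.35 at 0.15 M and fell by 1.41 ± 0.30 (adjusted p = 0.0014), with 0.7 M library 1 far below its group. HmgZ, which overlaps it on the opposite strand, changed by 0.022 ± 0.13 (adjusted p = 0.91). Df31, a chromatin factor, had 2.42, 2.68, 2.3 and 3.24 scaled FPKM at 0.7 M, against 6.38, 6.38, 7.697 and 5.44 at 0.15 M, a change of -1.03 ± 0.15 (adjusted p = 3.2e-05). Sdc, the heparan sulfate proteoglycan syndecan, changed by -1.07 ± 0.19 (adjusted p = 0.0003). Acox57D-d, which overlaps Sdc on the opposite strand and was not tested, had 1.74, 1.97, 1.99 and 1.27 scaled FPKM at 0.7 M, against 0.464, 0.331, 0.502 and 0.293 at 0.15 M. The gene miple2, a midkine-like growth factor, changed by -1.13 ± 0.19 (adjusted p = 0.00017). CG30360, the maltase Mal-A6, had 4.52, 5.35, 3.93 and 4.84 scaled FPKM at 0.7 M, against 12.8, 6.04, 10.8 and 17.1 at 0.15 M. All 4 high-sugar libraries lay below the control-diet range, at a change of -1.09 ± 0.22 (adjusted p = 0.00075). The Kazal-type inhibitor gene Kaz1-ORFB changed by -1.28 ± 0.16 (adjusted p = 3.7e-06), CG6870 by -1.22 ± 0.23 (adjusted p = 0.00042), CG18563 by -1.196 ± 0.18 (adjusted p = 2.5e-05), fok by -1.19 ± 0.23 (adjusted p = 0.00054) and vsg by -1.13 ± 0.26 (adjusted p = 0.0026). CG14526, a neprilysin-like protease gene, changed by -0.99 ± 0.22 (adjusted p = 0.0016). Each of these kept its call in every leave-out.

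**Figure D3:**
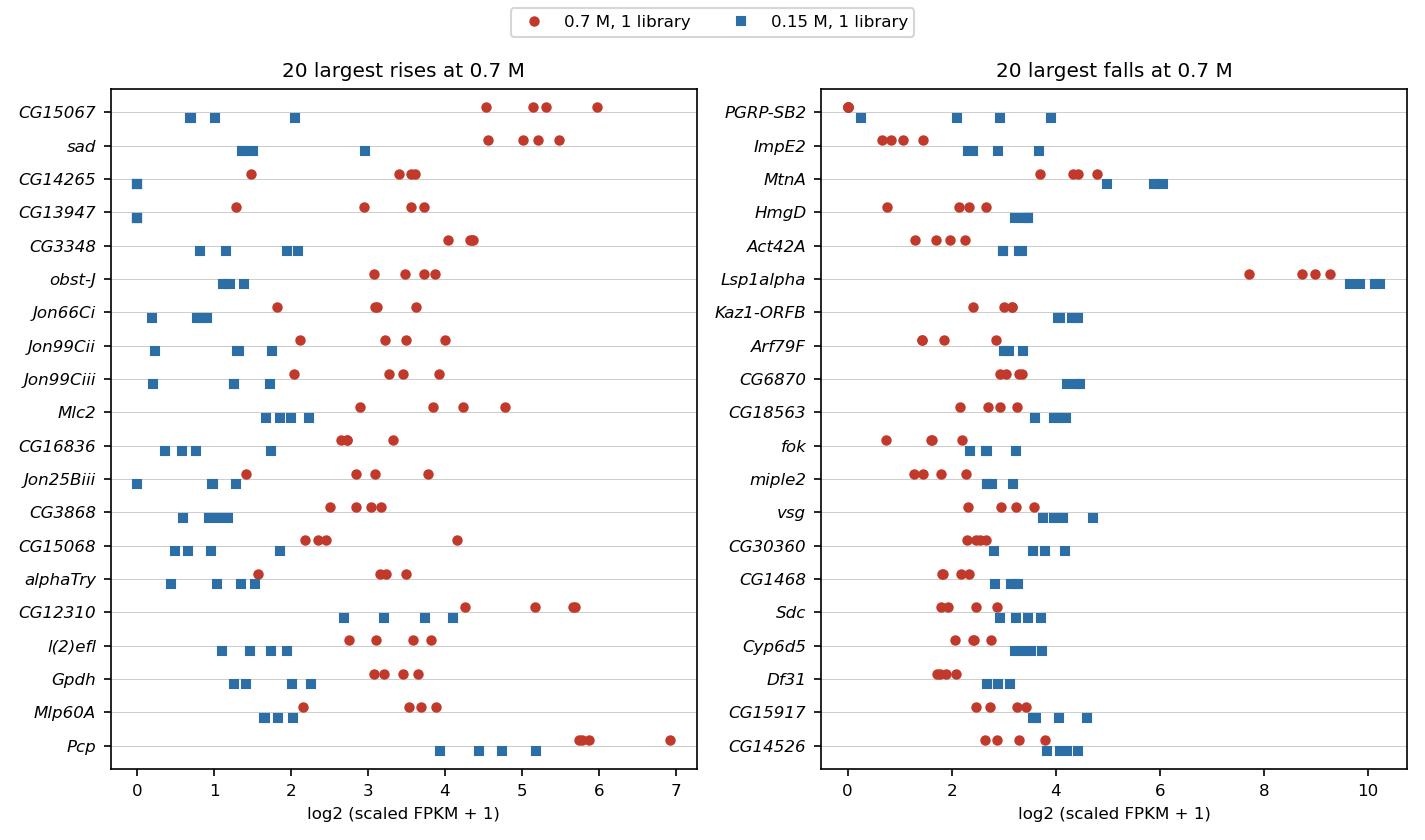
Level in each library (horizontal axis, log2 of scaled FPKM + 1) of the 20 largest rises (left) and 20 largest falls (right) among called genes whose mean reached 5 in a diet and whose diets did not overlap; red circles are the 0.7 M libraries and blue squares the 0.15 M libraries. The separation was chosen by the rule; the spread within a diet differs from gene to gene, wide in CG14265 and PGRP-SB2 and narrow in obst-J and Df31.

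Genes that supply NADPH and acetyl-CoA and the desaturase gene desat1 rose on the high-sugar diet. No tested gene of fatty acid synthesis beyond those named in this paragraph was called. Of 11 tested genes of fatty acid synthesis and NADPH supply 5 rose and 1 fell (median change 0.45), against 18.7% and 12.4% of all tested genes. The 5 rises held in every leave-out. Without both library 2s 8 rose and 0 fell, and with the muscle covariate 0 rose and 1 fell. Pgd, the 6-phosphogluconate dehydrogenase that makes NADPH in the pentose phosphate pathway, had 20.7, 20.5, 25.8 and 14.99 scaled FPKM at 0.7 M, against 7.47, 9.41, 9.07 and 4.91 at 0.15 M. The lowest 0.7 M library was above the highest 0.15 M library, and the change was 1.31 ± 0.29 (adjusted p = 0.0016), a ratio of means of 2.66. Men, the malic enzyme that makes NADPH from malate, had 14.96, 11, 17.6 and 9.29 scaled FPKM at 0.7 M, against 6.21, 5.71, 7.74 and 3.17 at 0.15 M. Its change was 1.09 ± 0.22 (adjusted p = 0.00087), again with no overlap. The desaturase desat1, which puts the double bond into newly made fatty acids, had 30.7, 24.4, 30.6 and 31.4 scaled FPKM at 0.7 M, against 14.6, 16.2, 16.9 and 9.54 at 0.15 M. It rose by 1.01 ± 0.19 (adjusted p = 0.00042), although 0.7 M library 2 lay below its group. AcCoAS, which makes acetyl-CoA from acetate, rose by 0.89 ± 0.21 (adjusted p = 0.0031). Zw, glucose-6-phosphate dehydrogenase, rose by 0.58 ± 0.16 (adjusted p = 0.0086). HLH106, the fly SREBP that drives lipogenic genes, was lower by contrast, at 1.96, 1.19, 1.89 and 2.18 scaled FPKM at 0.7 M, against 2.49, 3.54, 2.63 and 2.28 at 0.15 M. The change was -0.42 ± 0.12 (adjusted p = 0.009), and the call was lost without 0.7 M library 2 (adjusted p = 0.058).

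The pentose phosphate pathway as a whole, which turns glucose 6-phosphate into NADPH and pentoses, showed 3 risen and 0 fallen genes of 7 tested (median change 0.58). Among all tested genes 18.7% rose and 12.4% fell. All 3 rises held in every leave-out, and 3 genes rose without both library 2s. With the muscle covariate 0 were called in limma, and 0 had an unadjusted p under 0.05. Tal, transaldolase, joined Pgd and Zw with 34.8, 47.8, 42.9 and 21.9 scaled FPKM at 0.7 M, against 19, 21.2, 23.1 and 12.7 at 0.15 M. The ranges of the diets overlapped, 0.7 M library 4 lying inside the control-diet range, and the change was 0.90 ± 0.25 (adjusted p = 0.0091).

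Gpdh and Gpo-1, which make and reoxidise the precursor of the glycerol backbone of triglyceride, rose. Of 11 tested genes of triglyceride synthesis and lipid droplets 2 rose and 1 fell (median 0.18), near the 18.7% and 12.4% of all tested genes. Without both library 2s 2 rose and 0 fell. Gpdh, cytosolic glycerol-3-phosphate dehydrogenase, had 9.95, 7.48, 11.6 and 8.28 scaled FPKM at 0.7 M, against 3.04, 1.65, 3.78 and 1.39 at 0.15 M. The ratio of means was 3.78 and the change 1.62 ± 0.24 (adjusted p = 2.2e-05). Gpo-1, the mitochondrial enzyme that reoxidises glycerol 3-phosphate, had 0.9996, 1.58, 1.27 and 0.529 scaled FPKM at 0.7 M, against 0.169, 0.178, 0.193 and 0.157 at 0.15 M, low levels that did not overlap (change 0.81 ± 0.18, adjusted p = 0.0018). Lsd-2, a perilipin that protects lipid droplets from lipolysis, had 7.44, 4.29, 5.797 and 10.1 scaled FPKM at 0.7 M, against 10.7, 12.9, 10.98 and 9.38 at 0.15 M. Its groups overlapped through 0.7 M library 4. It changed by -0.65 ± 0.18 (adjusted p = 0.0097), and the call was lost without 0.7 M library 2 (adjusted p = 0.063). With the muscle covariate 1 gene of this list rose and 0 fell.

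Genes of lipolysis and fatty acid oxidation gave 4 rises and 0 falls of 16 tested (median 0.27), where 18.7% of all tested genes rose, and all 4 held in every leave-out. In the fit without both library 2s 2 rose, and with the muscle covariate 1 rose. The peroxisomal acyl-CoA oxidase gene CG9527 had 7.34, 6.57, 7.05 and 7.79 scaled FPKM at 0.7 M, against 4.69, 5.37, 4.45 and 4.88 at 0.15 M. The diets did not overlap, at a change of 0.49 ± 0.10 (adjusted p = 0.00075). The mitochondrial dehydrogenase scu had 56.2, 64.4, 66.6 and 39.9 scaled FPKM at 0.7 M, against 31.9, 28.8, 31.2 and 31.6 at 0.15 M, also apart (change 0.83 ± 0.24, adjusted p = 0.012). The carnitine carrier colt rose by 0.65 ± 0.18 (adjusted p = 0.0089) and the thiolase yip2 by 0.50 ± 0.13 (adjusted p = 0.0064). colt overlaps Taf10 on the opposite strand, which fell by 0.47 ± 0.12 (adjusted p = 0.0047), and the counting is not stated to use strand.

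Carbohydrate genes were called in about the share of all tested genes (31.1%) or less, and every call was a rise. In glycolysis 1 of 11 tested genes rose and 0 fell (median 0.39), with 10 of the 11 fitted changes above 0. That gene was PyK, pyruvate kinase, the last step of glycolysis, with 7.98, 6.79, 8.34 and 7.47 scaled FPKM at 0.7 M, against 4.404, 5.41, 4.66 and 3.88 at 0.15 M. Its high-sugar libraries all lay above the control-diet ones, and the change was 0.63 ± 0.16 (adjusted p = 0.0058), which held in every leave-out. Without both library 2s 1 gene rose, and with the muscle covariate 0 did, by limma, with 0 at an unadjusted p under 0.05. Of 13 tested genes of trehalose, glycogen and gluconeogenesis 4 rose and 0 fell, against 18.7% and 12.4% of all tested genes (median 0.23). Of these, 2 held in every leave-out, 3 were called without both library 2s and, in limma, 0 with the muscle covariate, where 4 had an unadjusted p under 0.05. CG5177, a trehalose phosphatase gene, had 2.87, 1.604, 3.09 and 2.22 scaled FPKM at 0.7 M, against 1.27, 0.771, 0.958 and 1.57 at 0.15 M, and rose by 0.68 ± 0.19 (adjusted p = 0.0081). CG30035, the trehalose transporter Tret1-1, rose by 0.43 ± 0.12 (adjusted p = 0.0089). Tps1, trehalose 6-phosphate synthase, rose by 0.57 ± 0.18 (adjusted p = 0.018), and the call was lost without 0.7 M library 1 or 3 or 0.15 M library 4 (adjusted p = 0.052 to 0.091). CG3652, which overlaps Tps1 on the opposite strand, fell by 0.28 ± 0.076 (adjusted p = 0.0084). Pgm, phosphoglucomutase, rose by 1.1 ± 0.35 (adjusted p = 0.019), but its libraries overlapped and the call was lost without 0.7 M library 1, 2 or 3 or 0.15 M library 4 (adjusted p = 0.051 to 0.083).

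Few genes of mitochondrial energy metabolism were called. In the tricarboxylic acid cycle 2 of 17 tested genes rose and 0 fell, with a median change of -0.036, and without both library 2s 0 were called in limma, with 2 at an unadjusted p under 0.05. SdhC, a membrane subunit of succinate dehydrogenase, had 5.61, 9.498, 6.56 and 4.14 scaled FPKM at 0.7 M, against 3.35, 3.89, 3.15 and 4.32 at 0.15 M. It rose by 0.63 ± 0.17 (adjusted p = 0.007), with 0.7 M library 4 inside the range of the control diet. Of 49 tested nuclear genes of the respiratory chain and ATP synthase 6 rose and 1 fell (median 0.24). None of these 7 calls held in every leave-out, and without both library 2s, as with the muscle covariate, 0 rose and 1 fell. The rises included the complex III subunits CG4169 (0.77 ± 0.29), RFeSP (0.73 ± 0.25) and CG3731 (0.64 ± 0.21), with adjusted p between 0.023 and 0.046, and the call was lost without 0.7 M library 1, 2 or 3 or 0.15 M library 1, 2 or 4 (adjusted p = 0.051 to 0.15) for CG4169. For RFeSP the call was lost without 0.7 M library 2 or 3 or 0.15 M library 2 or 4 (adjusted p = 0.059 to 0.09), and for CG3731 the call was lost without 0.7 M library 1, 2 or 3 or 0.15 M library 2 or 4 (adjusted p = 0.052 to 0.078). Syx8, which overlaps CG4169 on the opposite strand, rose by 0.39 ± 0.12 (adjusted p = 0.016). With the muscle covariate all 3 changes had the opposite sign and were not called.

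Many proteasome genes rose, each by a small amount. Of 33 tested subunits 18 rose and 0 fell (median 0.37), against 18.7% rising among all tested genes, and 13 of the 18 held in every leave-out. The count was 6 without both library 2s and, in limma, 0 with the muscle covariate, where 3 had an unadjusted p under 0.05. Prosalpha1, a subunit of the catalytic core, had 13.5, 16.01, 14.03 and 11.4 scaled FPKM at 0.7 M, against 8.27, 7.12, 7.89 and 9.38 at 0.15 M. The change was 0.68 ± 0.14 (adjusted p = 0.0012), with no overlap. Prosbeta5, which carries the chymotrypsin-like site, had 18.3, 25.6, 19.6 and 15.99 scaled FPKM at 0.7 M, against 13.1, 10.7, 11.8 and 16.5 at 0.15 M. It rose by 0.57 ± 0.14 (adjusted p = 0.0051), 0.7 M library 4 lying just under the highest control-diet library. Prosalpha5 rose by 0.55 ± 0.13 (adjusted p = 0.0039) and the regulatory ATPase Pros26_4, current symbol Rpt2, by 0.50 ± 0.12 (adjusted p = 0.0037). Prosbeta3 rose by 0.67 ± 0.22 (adjusted p = 0.02), and the call was lost without 0.7 M library 1 or 0.15 M library 3 (adjusted p = 0.052 to 0.058). Its opposite-strand neighbour CG11980 fell by 1.15 ± 0.37 (adjusted p = 0.021).

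Calls of ribosomal protein genes depended on single libraries and on scaling. Of 79 tested cytosolic ribosomal protein genes 8 rose and 3 fell (median 0.34), and 0 of the rises held in every leave-out. Without 0.7 M library 4 31 rose and 3 fell, without both library 2s 0 rose and 1 fell, and with the muscle covariate 0 rose and 1 fell. Median-ratio scaling gave 25 rises and 0 falls, and removal of the length trend 8 and 7. RpL8, a protein of the large subunit, had 233, 293, 264 and 175 scaled FPKM at 0.7 M, against 152, 148, 148 and 159 at 0.15 M. All 0.7 M libraries were above the control-diet range, with library 4 the lowest. The change was 0.64 ± 0.21 (adjusted p = 0.025), and the call was lost without 0.7 M library 2 or 3 (adjusted p = 0.073 to 0.093). Of 27 tested mitochondrial ribosomal protein genes 2 rose and 0 fell, and 10 rose without 0.7 M library 4, but limma called 0 without both library 2s, with 2 at an unadjusted p under 0.05. mRpL46 rose by 0.40 ± 0.11 (adjusted p = 0.0069) in every leave-out. Translation factors and tRNA synthetases gave 7 rises and 3 falls of 31, and 4 and 2 without both library 2s. The tyrosyl-tRNA synthetase gene Aats-tyr rose by 0.40 ± 0.10 (adjusted p = 0.0037), and the initiation factor eIF-1A fell by 0.45 ± 0.12 (adjusted p = 0.0088). With the muscle covariate 0 genes of either list were called in limma, and 1 of each had an unadjusted p under 0.05.

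Genes of autophagy and lysosome changed in both directions. Of 14 tested 3 rose and 4 fell (median 0.11), against 18.7% and 12.4% of all tested genes. The counts were 2 and 2 in every leave-out, 3 and 1 without both library 2s and 2 and 0 with the muscle covariate. Cp1, cathepsin L, had 47.3, 49.8, 46.7 and 50.96 scaled FPKM at 0.7 M, against 26.8, 31.7, 22.4 and 35.4 at 0.15 M. These groups were well apart, with a change of 0.74 ± 0.13 (adjusted p = 0.0002). CG10992, cathepsin B, had 21.7, 27.6, 20.8 and 20.5 scaled FPKM at 0.7 M, against 13.1, 13.2, 11.7 and 15.8 at 0.15 M, and rose by 0.71 ± 0.11 (adjusted p = 3.1e-05), 0.7 M library 2 being the highest. Atg8a, the ubiquitin-like protein that coats autophagosomes, had 4.6, 3.396, 3.67 and 6.03 scaled FPKM at 0.7 M, against 7.203, 8.23, 6.96 and 8.34 at 0.15 M, lower in all 4 high-sugar libraries (change -0.70 ± 0.18, adjusted p = 0.0047). CG6206, a lysosomal mannosidase gene, fell by 0.73 ± 0.19 (adjusted p = 0.0062) with overlap. CG3305, the lysosomal membrane protein Lamp1, fell by 0.70 ± 0.25 (adjusted p = 0.034). The vacuolar ATPase, which acidifies lysosomes, had 1 risen and 6 fallen subunits of 12 tested (median -0.24), against 12.4% falling among all tested genes. Vha26 had 1.49, 0.8598, 1.11 and 2.03 scaled FPKM at 0.7 M, against 2.79, 2.93, 2.66 and 2.65 at 0.15 M. No high-sugar library reached the control-diet range, and the change was -0.69 ± 0.18 (adjusted p = 0.0058). VhaAC39 fell by 0.46 ± 0.095 (adjusted p = 0.0011), Vha16 fell by 0.45 ± 0.11 (adjusted p = 0.0055), while Vha36 rose by 0.56 ± 0.15 (adjusted p = 0.0056). The counts were 0 and 2 without both library 2s and, in limma, 0 and 0 with the muscle covariate, where 1 gene had an unadjusted p under 0.05.

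The secretory pathway and its chaperones changed in few genes. Of 31 tested genes of translocation and vesicle coats 3 rose and 4 fell, none in every leave-out and, by limma, 0 without both library 2s, where 7 had an unadjusted p under 0.05. Arf79F, the small GTPase that recruits vesicle coats, had 2.64, 1.69, 1.69 and 6.25 scaled FPKM at 0.7 M, against 6.99, 9.34, 7.26 and 7.54 at 0.15 M. The groups were apart, with 0.7 M library 4 close to the control-diet range. It changed by -1.23 ± 0.36 (adjusted p = 0.012), and the call was lost without 0.7 M library 2 or 3 (adjusted p = 0.051). Of 11 tested chaperones of the endoplasmic reticulum 1 rose and 1 fell, and without both library 2s limma called 0, with 1 at an unadjusted p under 0.05. Hsc70-3, the fly BiP, changed by -0.58 ± 0.19 (adjusted p = 0.021), and the call was lost without 0.7 M library 2 or 3 or 0.15 M library 2 (adjusted p = 0.065 to 0.1).

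Of 14 tested genes of cytosolic and small heat shock proteins 2 rose and 5 fell, against 18.7% and 12.4% of all tested genes (median -0.45), 1 and 2 of them in every leave-out, 1 and 4 without both library 2s and, in limma, 0 and 0 with the muscle covariate, where 5 had an unadjusted p under 0.05. The small heat shock protein gene l(2)efl had 11.04, 5.72, 13.1 and 7.61 scaled FPKM at 0.7 M, against 2.34, 1.76, 1.15 and 2.86 at 0.15 M. It rose by 1.75 ± 0.32 (adjusted p = 0.00037), with the diets apart. Hop, a co-chaperone that links Hsp70 and Hsp90, had 0.936, 0.617, 0.652 and 1.01 scaled FPKM at 0.7 M, against 1.68, 1.78, 1.73 and 1.48 at 0.15 M, and fell by 0.57 ± 0.095 (adjusted p = 0.00011). Hsp67Ba had 0.775, 0.787, 0.6898 and 0.709 scaled FPKM at 0.7 M, against 1.54, 1.59, 1.47 and 1.53 at 0.15 M, tight groups that did not overlap (change -0.54 ± 0.12, adjusted p = 0.0015). Hsp23 had 116, 126, 73.01 and 178 scaled FPKM at 0.7 M, against 306, 128, 233 and 457 at 0.15 M. Its 0.15 M library 2 lay inside the high-sugar range, the change was -1.104 ± 0.35 (adjusted p = 0.018), and the call was lost without 0.7 M library 3 or 0.15 M library 1 or 4 (adjusted p = 0.051 to 0.09).

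Storage proteins and lipid carriers did not move together. Of 20 tested genes 1 rose and 5 fell (median -0.10), against 18.7% and 12.4% of all tested genes. Without both library 2s 1 rose and 1 fell. Lsp1alpha, a subunit of the hexamerin that larvae store for metamorphosis, had 504, 209, 424 and 614 scaled FPKM at 0.7 M, against 1117, 806, 1204 and 915 at 0.15 M. Every high-sugar library was lower, library 2 the lowest, and the change was -1.29 ± 0.24 (adjusted p = 0.00038). Lsp1gamma, another subunit, had 981, 457, 921 and 1072 scaled FPKM at 0.7 M, against 1321, 1176, 1498 and 964 at 0.15 M, which overlap through 0.15 M library 4. The change was -0.58 ± 0.20 (adjusted p = 0.032), and the call was lost without 0.7 M library 2 or 0.15 M library 1 or 3 (adjusted p = 0.073 to 0.2). Lsp1beta (-0.19 ± 0.19, adjusted p = 0.45) and the other hexamerin Lsp2 (-0.082 ± 0.11, adjusted p = 0.57) did not pass the test. Rfabg, the apolipophorin of the main lipoprotein of the blood, had 1.88, 1.45, 0.805 and 3.33 scaled FPKM at 0.7 M, against 4.46, 6.43, 5.01 and 2.86 at 0.15 M. The change was -1.02 ± 0.28 (adjusted p = 0.0086), with 0.7 M library 4 inside the range of the other diet. Mtp, which loads lipid onto lipoproteins, fell by 0.29 ± 0.10 (adjusted p = 0.023), and the call was lost without 0.7 M library 2 or 3 or 0.15 M library 2 (adjusted p = 0.052 to 0.1). Tsf1, an iron-binding transferrin of the blood, had 39.5, 38.99, 46.1 and 27.9 scaled FPKM at 0.7 M, against 21.4, 14.1, 25.8 and 12.2 at 0.15 M. It was the list's only called rise, by 1.05 ± 0.26 (adjusted p = 0.0045), without overlap. With the muscle covariate 0 of these genes rose and 2 fell. Of the 9 fat body markers, drawn mostly from this list, 5 fell and 0 rose, and 1 fell without both library 2s. These counts depended on scaling. With median-ratio scaling 1 of the 9 markers rose and 2 fell, and of the 20 storage and carrier genes 2 rose and 2 fell.

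The 10 most abundant genes made up 40.2% to 46.2% of the summed level of a library at 0.7 M and 46.2% to 49.7% at 0.15 M. Obp99b, a secreted odorant-binding protein, led with 14.8% to 17.9% at 0.7 M and 13.5% to 17.1% at 0.15 M. It did not pass the test (change 0.13 ± 0.21, adjusted p = 0.67), nor did CG34166 (0.24 ± 0.25, adjusted p = 0.48). CG31775 had 1008, 1193, 986 and 1010.0 scaled FPKM at 0.7 M, against 468, 269, 468 and 481 at 0.15 M. The groups were far apart, and the change was 1.35 ± 0.38 (adjusted p = 0.0098). CG42586 had 0.7 M and 0.15 M values in nearly the same proportion (1.35 ± 0.38), and the pair, near-identical copies between which reads may be split, counts as 1 signal. Fbp1, a hexamerin receptor that ecdysone induces, had 1874, 1406, 1419.9 and 2517 scaled FPKM at 0.7 M, against 2712, 2189, 2342 and 3564 at 0.15 M. It fell by 0.60 ± 0.20 (adjusted p = 0.028) with overlap, and the call was lost without 0.7 M library 2 or 3 or 0.15 M library 1 or 4 (adjusted p = 0.057 to 0.12). The transcript noncoding_21083 changed by -1.06 ± 0.33 (adjusted p = 0.016), and the call was lost without 0.7 M library 2 or 0.15 M library 1 or 4 (adjusted p = 0.05 to 0.094).

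**Figure D4:**
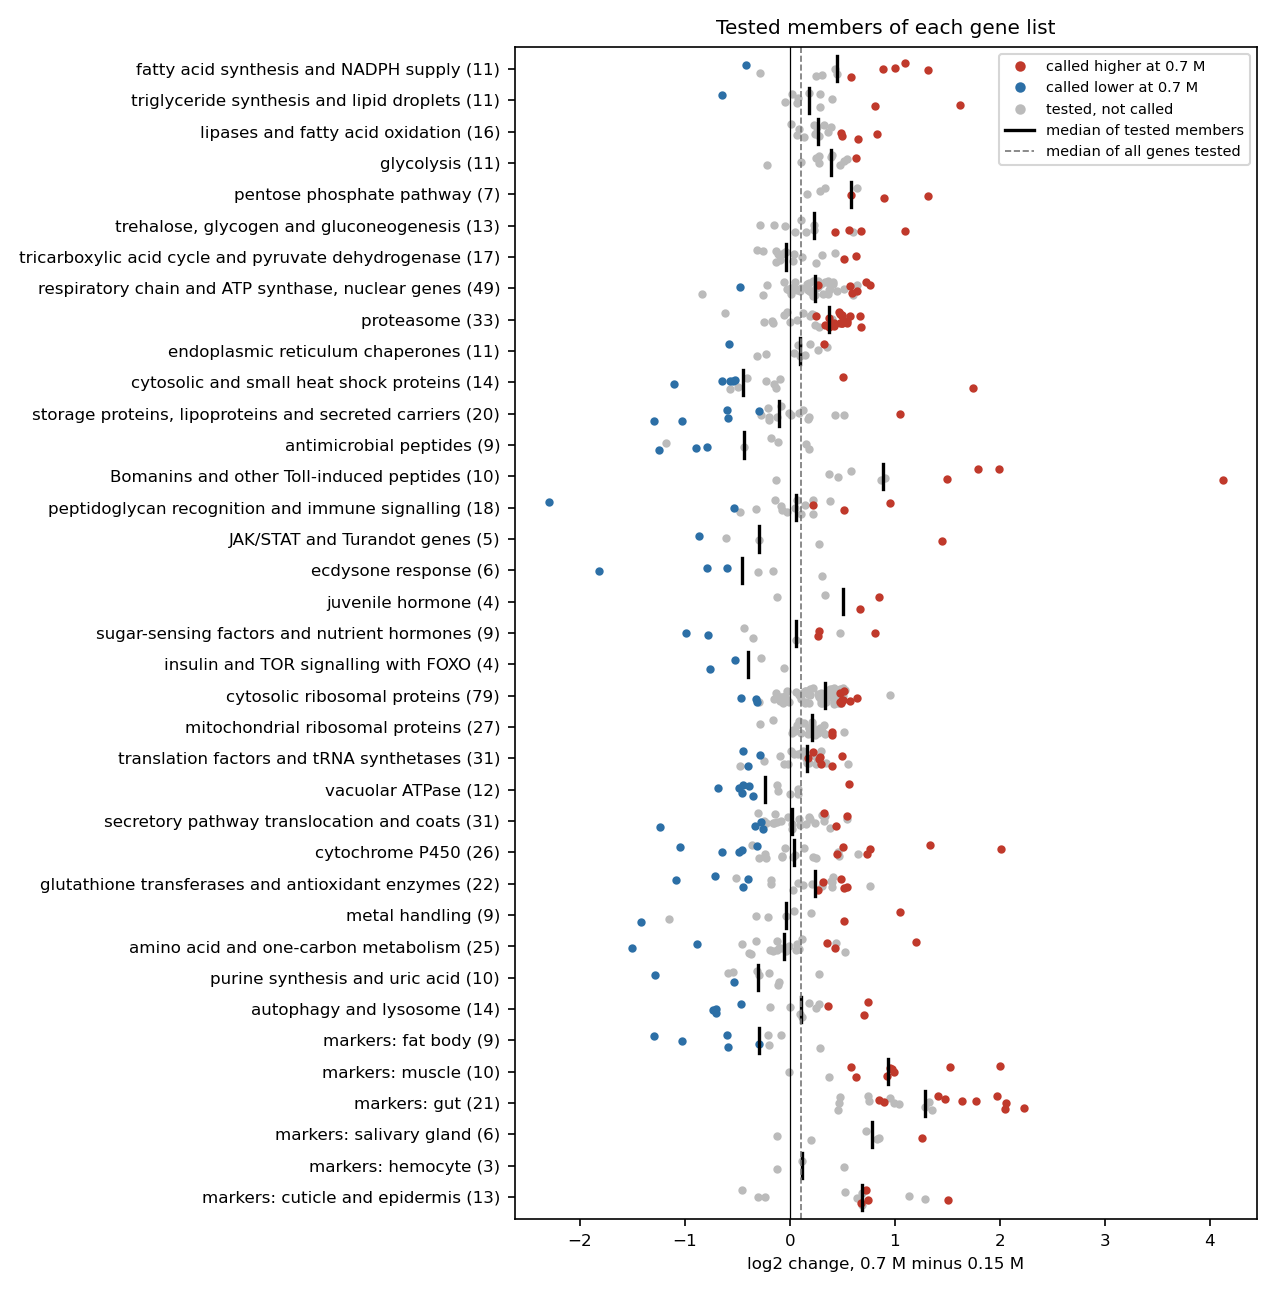
Change at 0.7 M against 0.15 M (horizontal axis, log2 scale) of every tested member of each gene list with at least 4 tested members, or 3 for tissue markers (number in brackets); red points were called higher, blue lower, grey not called, the thick bar is the median of the list and the dashed line the median of all tested genes, 0.11. Of the proteasome genes 26 of 33 lie right of 0 and of the vacuolar ATPase genes 4 of 12, and the point furthest to the right is CG15067 (4.13) among the Bomanins.

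Among immune peptides, every called Bomanin rose and every called antimicrobial peptide gene fell. Bomanins and other Toll-induced peptides gave 4 rises and 0 falls of 10 tested (median 0.89), against 18.7% and 12.4% of all tested genes. Of the rises 3 held in every leave-out. There were 4 rises without both library 2s and 4 with the muscle covariate. Besides CG15067, the Bomanin gene CG16836 had 5.603, 9.002, 5.61 and 5.25 scaled FPKM at 0.7 M, against 0.288, 2.34, 0.497 and 0.696 at 0.15 M. The change was 1.99 ± 0.41 (adjusted p = 0.00098). IM3, another Bomanin, had 7.66, 10.9, 7.22 and 8.21 scaled FPKM at 0.7 M, against 1.34, 8.57, 1.08 and 1.64 at 0.15 M. Its 0.15 M library 2 reached the high-sugar range while the other 3 did not, and the change was 1.496 ± 0.40 (adjusted p = 0.0072). CG15068 rose by 1.79 ± 0.49 (adjusted p = 0.0082), and the call was lost without 0.7 M library 2 (adjusted p = 0.052).

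Antimicrobial peptide genes, mostly targets of the Imd pathway, gave 0 rises and 3 falls of 9 tested (median -0.43), 2 in every leave-out. Among all tested genes 18.7% rose and 12.4% fell. Limma called 0 without both library 2s, with 4 at an unadjusted p under 0.05, and 0 with the muscle covariate, with 1. AttB, an attacin, had 1.95, 1.32, 1.86 and 1.67 scaled FPKM at 0.7 M, against 2.98, 6.098, 2.57 and 3.64 at 0.15 M. All high-sugar libraries were below the control-diet range, at a change of -0.79 ± 0.21 (adjusted p = 0.0069). Dro, drosocin, had 1.65, 1.08, 1.34 and 2.35 scaled FPKM at 0.7 M, against 3.66, 11.8, 1.87 and 6.98 at 0.15 M, with a wide spread at 0.15 M that overlaps the high-sugar range (change -1.25 ± 0.33, adjusted p = 0.0066). Dpt, diptericin, changed by -0.90 ± 0.32 (adjusted p = 0.036), and the call was lost without 0.7 M library 1, 2 or 3 or 0.15 M library 1, 2 or 3 (adjusted p = 0.062 to 0.14). Among 18 tested genes of peptidoglycan recognition and immune signalling 3 rose and 2 fell, and 2 and 2 without both library 2s. PGRP-SB2, a secreted peptidoglycan recognition protein, was listed at 0 in all 4 libraries at 0.7 M, against 6.63, 0.193, 3.28 and 13.99 scaled FPKM at 0.15 M (adjusted p = 0.0019). Library 2 was close to 0 as well. cact, the inhibitor of the Toll pathway's NF-kappaB factors, had 1.44, 0.953, 1.15 and 1.77 scaled FPKM at 0.7 M, against 2.16, 2.299, 2.11 and 2.83 at 0.15 M. It fell by 0.53 ± 0.11 (adjusted p = 0.00082), without overlap. The amidase gene PGRP-SC2 had 82.8, 75.7, 94.3 and 86.7 scaled FPKM at 0.7 M, against 29.3, 121, 33.3 and 29.3 at 0.15 M, so that 0.15 M library 2 exceeded every high-sugar library. It rose by 0.95 ± 0.29 (adjusted p = 0.014), and the call was lost without 0.15 M library 1 or 4 (adjusted p = 0.06 to 0.063). With the muscle covariate 0 of these genes rose and 1 fell.

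In the JAK/STAT pathway, which carries cytokine signals, 1 of 5 tested genes rose and 1 fell, also without both library 2s, and with the muscle covariate limma called 0, with 1 at an unadjusted p under 0.05. Stat92E, the pathway's transcription factor, had 1.005, 0.706, 0.742 and 1.47 scaled FPKM at 0.7 M, against 2.197, 4.26, 2.49 and 1.77 at 0.15 M. The diets did not overlap, and the change was -0.87 ± 0.19 (adjusted p = 0.0016). TotC, a stress-induced peptide of the Turandot family, had 12.8, 8.83, 15.4 and 8.19 scaled FPKM at 0.7 M, against 1.84, 21.6, 2.14 and 0.835 at 0.15 M. Its highest value was in 0.15 M library 2, the change was 1.45 ± 0.53 (adjusted p = 0.04), and the call was lost without 0.7 M library 1, 2 or 3 or 0.15 M library 1, 3 or 4 (adjusted p = 0.061 to 0.17).

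Among hormone genes the largest change was in sad, a mitochondrial P450 that carries out a late step of ecdysone synthesis in the prothoracic gland. It had 35.9, 31.4, 43.6 and 22.6 scaled FPKM at 0.7 M, against 1.57, 6.78, 1.84 and 1.599 at 0.15 M. Even the highest control-diet library, library 2, was below the lowest at 0.7 M, and the change was 3.26 ± 0.26 (adjusted p = 1.2e-09), a ratio of means of 11.3. Of the pathway's other enzymes only sro reached the filter, and it was not called. The early genes nvd, spo and spok were listed at 0 in all 8 libraries, dib was above 0 in 1 library at 0.144 scaled FPKM, and phantom was at most 0.604. CG12068, current symbol sro, was expressed at 11.1, 12.7, 12.1 and 10.9 scaled FPKM at 0.7 M and 9.14, 6.63, 9.89 and 9.11 at 0.15 M (change 0.40 ± 0.20, adjusted p = 0.13). Its libraries did not overlap, but the test was not passed. The levels of shd, which makes the active hormone 20-hydroxyecdysone from ecdysone, were below the filter in the experiment and were not tested. It had 1.09, 1.14, 0.863 and 1.34 scaled FPKM at 0.7 M, against 1.64, 1.55, 1.41 and 1.41 at 0.15 M, lower in every high-sugar library. Cyp18a1, which breaks ecdysone down, was at most 0.041. CG6962, which overlaps sad on the opposite strand, was at most 0.105. The call for sad held in every leave-out and with the muscle covariate, where 1 gene of the list rose.

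Ecdysone-responsive genes fell where they changed. Of 6 tested genes 0 rose and 3 fell (median -0.45), against 18.7% and 12.4% of all tested genes. The falls numbered 2 in every leave-out and 2 without both library 2s. With the muscle covariate limma called 0, where 3 had an unadjusted p under 0.05. ImpE2, an ecdysone-inducible gene of imaginal discs, had 1.09, 0.786, 0.588 and 1.72 scaled FPKM at 0.7 M, against 4.34, 11.8, 3.998 and 6.36 at 0.15 M. The diets were well apart, and the change was -1.82 ± 0.28 (adjusted p = 4.4e-05), a ratio of means of 0.158. br, the Broad factor of the metamorphic response, had 1.41, 0.788, 1.02 and 1.804 scaled FPKM at 0.7 M, against 2.47, 3.14, 1.97 and 4.12 at 0.15 M, and fell by 0.79 ± 0.16 (adjusted p = 0.00079). The remaining fall was in Fbp1. Juvenile hormone genes gave 2 rises of 4 tested, against 18.7% of all tested genes. Without both library 2s 1 rose. With the muscle covariate limma called 0, where 0 had an unadjusted p under 0.05. Jheh3, an epoxide hydrolase that inactivates juvenile hormone, had 12.5, 14.4, 14.4 and 9.77 scaled FPKM at 0.7 M, against 7.12, 6.298, 8.09 and 5.14 at 0.15 M. All high-sugar values were higher (change 0.85 ± 0.18, adjusted p = 0.0011). Jheh1, its neighbour in the family, rose by 0.67 ± 0.17 (adjusted p = 0.006).

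Fat body signals of nutrient state changed in both directions. Of 9 tested sugar-sensing factors and nutrient hormones 3 rose and 2 fell, the same number without both library 2s, and 1 rose with the muscle covariate. CG14375, the peptide hormone CCHa2 that signals from fat body to the insulin-producing cells, had 8.61, 11.98, 7.75 and 9.48 scaled FPKM at 0.7 M, against 5.04, 4.38, 4.36 and 5.86 at 0.15 M. Without overlap, it rose by 0.81 ± 0.13 (adjusted p = 0.0001). CG15917, the growth-blocking peptide gene Gbp1, had 5.63, 9.69, 4.501 and 8.54 scaled FPKM at 0.7 M, against 15.7, 11.3, 10.7 and 23.2 at 0.15 M. It fell by 0.99 ± 0.25 (adjusted p = 0.0047). Ilp6, an insulin-like peptide of the fat body, had 2.42, 0.981, 1.53 and 4.42 scaled FPKM at 0.7 M, against 4.31, 3.698, 3.07 and 6.94 at 0.15 M. The ranges overlapped through 0.7 M library 4, at a change of -0.78 ± 0.21 (adjusted p = 0.0072). The sugar-sensing partner bigmax rose by 0.27 ± 0.10 (adjusted p = 0.034), and the call was lost without 0.7 M library 1 or 3 or 0.15 M library 2 or 3 (adjusted p = 0.068 to 0.086). Of 4 tested genes of insulin and TOR signalling 0 rose and 2 fell, and limma called 0 without both library 2s, with 2 at an unadjusted p under 0.05, and 0 with the muscle covariate, with 0. CG11299, Sestrin, a stress-induced inhibitor of TOR, had 1.205, 0.576, 0.903 and 1.45 scaled FPKM at 0.7 M, against 1.73, 2.31, 1.33 and 2.29 at 0.15 M (change -0.52 ± 0.14, adjusted p = 0.007), with overlap. Thor, the translation inhibitor 4E-BP and a FOXO target, had 35.6, 17.2, 27.5 and 43 scaled FPKM at 0.7 M, against 50.7, 44.8, 44.99 and 61.8 at 0.15 M. All high-sugar libraries were lower, the change was -0.76 ± 0.23 (adjusted p = 0.014), and the call was lost without 0.7 M library 2 or 0.15 M library 4 (adjusted p = 0.052 to 0.089).

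Cytochrome P450 genes, which act on hormones, lipids and toxins, changed in both directions. Of 26 tested genes 6 rose and 5 fell (median 0.042), not far above the 18.7% and 12.4% of all tested genes. Of these 11 calls 10 held in every leave-out. Without both library 2s 7 rose and 5 fell, whereas with the muscle covariate 1 rose and 3 fell. Cyp4e3 had 4.48, 2.72, 6.499 and 2.38 scaled FPKM at 0.7 M, against 0.192, 0.223, 0.143 and 0.1598 at 0.15 M. It was near 0 on the control diet, and rose by 2.02 ± 0.22 (adjusted p = 4.8e-07). Cyp4d1 had 56.4, 66.2, 64.6 and 40.8 scaled FPKM at 0.7 M, against 23.8, 16.4, 24.9 and 22.6 at 0.15 M, without overlap (change 1.33 ± 0.31, adjusted p = 0.0024). Cyp6d5 had 4.29, 4.37, 3.21 and 5.74 scaled FPKM at 0.7 M, against 10.5, 8.32, 9.19 and 12.3 at 0.15 M, and fell by 1.04 ± 0.17 (adjusted p = 8.8e-05). Cyp9f2 rose by 0.73 ± 0.14 (adjusted p = 0.0005) and Cyp28d1 fell by 0.65 ± 0.16 (adjusted p = 0.0042). Among 22 tested glutathione transferases and antioxidant enzymes 5 rose and 4 fell, also not far above these shares. The counts were 2 and 3 without both library 2s and 0 and 2 with the muscle covariate. Cat, catalase, had 30.8, 20.5, 28.7 and 32.3 scaled FPKM at 0.7 M, against 48.97, 38.5, 42.7 and 56.2 at 0.15 M. Its groups did not overlap, and the change was -0.72 ± 0.14 (adjusted p = 0.00064). The glutathione transferase gene GstD3 had 1.29, 1.94, 0.974 and 2.05 scaled FPKM at 0.7 M, against 5.15, 2.104, 4.01 and 7.48 at 0.15 M, a change of -1.08 ± 0.24 (adjusted p = 0.0021).

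Metal-handling genes included both an iron and a copper or zinc gene. Of 9 tested 2 rose and 1 fell, 2 and 0 without both library 2s and 0 and 1 with the muscle covariate. Fer1HCH, the heavy chain of secreted ferritin, had 36.4, 35.5, 38.1 and 34.8 scaled FPKM at 0.7 M, against 23.2, 28.07, 23.6 and 25.1 at 0.15 M. It rose by 0.52 ± 0.10 (adjusted p = 0.00083) with the diets apart, while Fer2LCH, the light chain encoded next to it on the opposite strand, changed by -0.21 ± 0.21 (adjusted p = 0.46). MtnA, a metallothionein that binds copper and other metals, had 26.8, 20.5, 19.1 and 11.98 scaled FPKM at 0.7 M, against 58.01, 62.4, 65.5 and 30.8 at 0.15 M. It was lower in all 4 high-sugar libraries, at a change of -1.42 ± 0.45 (adjusted p = 0.019). The other rise was Tsf1.

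In amino acid and one-carbon metabolism 3 of 25 tested genes rose and 2 fell (median -0.056), 1 and 2 of them in every leave-out and without both library 2s, and 0 and 3 with the muscle covariate. CG7470, which makes the precursor of proline, had 24.1, 26.7, 29.3 and 14.7 scaled FPKM at 0.7 M, against 9.22, 10.5, 9.903 and 8.11 at 0.15 M. The change was 1.21 ± 0.23 (adjusted p = 0.00046), without overlap. Nmdmc, a mitochondrial folate enzyme, had 2.14, 1.78, 1.29 and 3.77 scaled FPKM at 0.7 M, against 9.62, 3.54, 7.82 and 13.4 at 0.15 M. It fell by 1.502 ± 0.32 (adjusted p = 0.0012), with 0.15 M library 2 inside the range of the other diet. It shares its strand and part of its span with Rel (change -0.33 ± 0.15, adjusted p = 0.1), so reads could be divided between them. CG3999, a glycine cleavage enzyme gene, had 6.36, 6.05, 5.23 and 8.43 scaled FPKM at 0.7 M, against 13.3, 8.97, 11.7 and 18.4 at 0.15 M, lower in each high-sugar library (change -0.88 ± 0.23, adjusted p = 0.0054). Of 10 tested genes of purine synthesis and uric acid 0 rose and 2 fell, 1 without both library 2s and, in limma, 0 with the muscle covariate, where 7 had an unadjusted p under 0.05. CG3590, adenylosuccinate lyase, fell by 0.53 ± 0.19 (adjusted p = 0.031), and the call was lost without 0.7 M library 2 or 3 or 0.15 M library 1 or 4 (adjusted p = 0.065 to 0.14). Uro, urate oxidase and a Malpighian tubule marker, had 1.09, 3.37, 0.329 and 2.47 scaled FPKM at 0.7 M, against 7.601, 3.92, 9.65 and 2.29 at 0.15 M. The values overlapped, the change was -1.28 ± 0.41 (adjusted p = 0.019), and the call was lost without 0.7 M library 1 or 3 or 0.15 M library 1 or 3 (adjusted p = 0.05 to 0.096). The pupal cuticle protein gene Pcp, which lies inside the purine gene ade3 on the opposite strand, had 54.1, 121, 52.7 and 57.8 scaled FPKM at 0.7 M, against 20.7, 25.7, 14.3 and 35.4 at 0.15 M. It rose by 1.51 ± 0.24 (adjusted p = 8.4e-05), while ade3 itself was at 20.3, 21.6, 20.6 and 21.7 scaled FPKM at 0.7 M and 32.1, 26.2, 30.9 and 36.1 at 0.15 M. The only tested gene of DNA replication and the cell cycle was geminin, an inhibitor of replication, which changed by -0.29 ± 0.085 (adjusted p = 0.013). Limma did not call it without both library 2s, where its unadjusted p was under 0.05, or with the muscle covariate, where it was not.

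The diet response was then set against 2 other experiments on females, also controls with floated fat bodies and 3 libraries per diet each. In the first, the fathers came from the VDRC's w1118 stock and the driver was r4-GAL4, and in the second the w1118 fathers were combined with cg-GAL4, another driver with fat body expression. Both carried UAS-Dcr2. They share no library with the 60100 experiment. Control stock, driver, experiment and scaling differ together between them and cannot be told apart. In r4 w1118 females 311 of 2177 tested genes were called (14.3%), 247 higher (11.3%) and 64 lower (2.94%) at 0.7 M, and in cg females 847 of 2131 (39.7%), 585 higher (27.5%) and 262 lower (12.3%).

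Shared calls were counted among genes tested in both experiments. Of 349 genes that rose in 60100 larvae 99 also rose in r4 w1118 larvae, which is 28.4% of the 60100 rises and 42.5% of the 233 w1118 rises, where 11.7% of all genes tested in both rose in w1118 larvae. Of 285 falls 24 were shared (8.42%, and 39.3% of 61), against 3.06%. With cg females 137 of 254 rises were shared (53.9%, and 25.5% of 538), against 31.0%, and 8 had fallen there. Of 285 falls 68 were shared (23.9%, and 35.8% of 190), against 10.9%, and 42 had risen in cg females. Among the largest changes, CG3348 changed by 3.72 ± 0.27 (adjusted p = 6.2e-05) in r4 w1118 and 3.18 ± 0.20 (adjusted p = 0.00023) in cg females, Gpdh by 1.97 ± 0.23 (adjusted p = 0.00042) and 2.29 ± 0.10 (adjusted p = 7.9e-05), ImpE2 by -2.12 ± 0.36 (adjusted p = 0.0043) and -1.93 ± 0.19 (adjusted p = 0.00075), and Act42A by -1.85 ± 0.17 (adjusted p = 0.00014) and -2.91 ± 0.30 (adjusted p = 0.00085). Of the 20 largest rises and 20 largest falls, these 4 genes and fok, vsg and Cyp6d5 were called in the same direction in all 3 experiments. The 20 falls were all tested in both other experiments, but many of the rises were not. The changes of CG14265, CG13947, alphaTry, l(2)efl and Mlp60A were tested in neither. CG15067, sad, obst-J, Mlc2, CG16836 and Pcp were tested only in r4 w1118 larvae, and CG3868 only in cg females. Lsp1alpha fell in r4 w1118 larvae (-1.99 ± 0.59, adjusted p = 0.047) but rose in cg females (0.75 ± 0.20, adjusted p = 0.028), and the proteases Jon66Ci, Jon99Cii, Jon99Ciii and Jon25Biii had negative changes in both other experiments, none of them called. The changes of CG15067 and sad in r4 w1118 larvae, 0.82 ± 0.74 (adjusted p = 0.47) and 1.05 ± 0.68 (adjusted p = 0.31), were not called there, and neither gene was among those tested for a difference from the 60100 change.

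**Figure D5:**
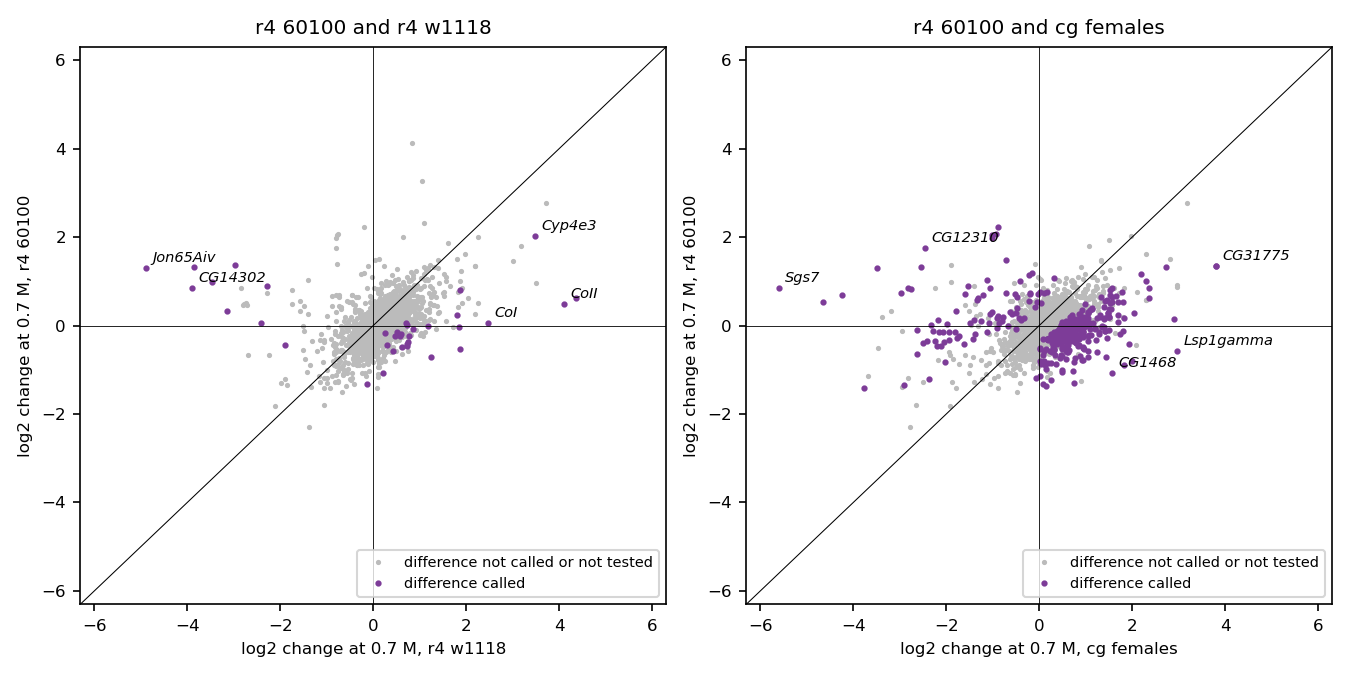
Change at 0.7 M in 60100 females (vertical axis, log2 scale) against the change in r4 w1118 females (left) and cg females (right, horizontal axes, log2 scale); each point is 1 gene, purple where the difference of the diet effects was called, and the diagonal marks equal change. Gut proteases such as Jon65Aiv lie far left of the diagonal in the left panel, and Sgs7 does in the right panel, while most purple points in the right panel lie to the right of it.

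The difference of the diet effects, the change in 60100 larvae minus the change in the other experiment, was tested next. Against r4 w1118 females 37 of 1973 genes differed (1.88%), 10 with a higher (0.507%) and 27 with a lower change (1.37%) in 60100 larvae. That count ranged from 1 to 77 when single libraries were left out, and without both library 2s of the 60100 experiment it was 97. The 8 largest positive differences included gut proteases. For Jon65Aiv the difference was 6.19 ± 1.32 (adjusted p = 0.036), and for Jon65Aiii 5.19 ± 1.05 (adjusted p = 0.031). In the w1118 experiment Jon65Aiv was at 0.413 to 0.774 at 0.7 M, against 27.5 to 74.7 at 0.15 M, whereas in 60100 larvae it had 33.3, 13.9, 20.97 and 49.7 scaled FPKM at 0.7 M, against 35.8, 0.778, 51.9 and 3.59 at 0.15 M. Of the tested gut markers 8 of 13 fell in w1118 larvae, where 2.94% of all tested genes fell. In 60100 larvae 10 of 21 rose, where 18.7% of all tested genes did. With the muscle covariate limma called 0 of these 21, with 3 at an unadjusted p under 0.05. The difference was called for 5 of 14, each with the higher change in 60100 larvae, against 0.507% of all tested genes. Jon65Aiv kept its difference in 7 of 14 leave-outs.

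Among genes with a lower change than in w1118 larvae, Ufd1-like, a partner of the segregase p97, was the only called difference that held in all 14 leave-outs among those named by the rule. It had 2.95, 2.902, 2.53 and 2.69 scaled FPKM at 0.7 M, against 2.41, 2.004, 2.13 and 2.22 at 0.15 M, a small change of 0.24 ± 0.078 (adjusted p = 0.021), but in w1118 larvae it was at 2.17 to 2.803 at 0.7 M, against 0.00227 to 0.0139 at 0.15 M. The difference was -1.57 ± 0.12 (adjusted p = 2e-05). In 60100 larvae the call was lost without 0.7 M library 1 or 2 or 0.15 M library 2 (adjusted p = 0.062 to 0.064). mRpL2, which overlaps it on the opposite strand, changed by 0.31 ± 0.13 (adjusted p = 0.08) there. Cyp4e3 rose more in w1118 larvae, where it was at 11.7 to 13.9 at 0.7 M, against 0.128 to 0.331 at 0.15 M. The difference of -1.47 ± 0.30 (adjusted p = 0.031) held in 7 of 14 leave-outs. The mitochondrial transcripts CoII and CoI differed by -3.63 ± 0.65 (adjusted p = 0.025) and -2.42 ± 0.46 (adjusted p = 0.027). In 60100 larvae their changes were 0.48 ± 0.76 (adjusted p = 0.64) and 0.052 ± 0.61 (adjusted p = 0.95), neither of them called, while in w1118 larvae CoII was at 43.8 to 131 at 0.7 M, against 2.33 to 5.35 at 0.15 M, a change of 4.11 (adjusted p = 0.0078).

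Against cg females 379 of 1766 genes differed (21.5%), 87 with a higher (4.93%) and 292 with a lower change (16.5%) in 60100 larvae, and 372 without both library 2s. The split depended on scaling: 116 and 136 genes were called after median-ratio scaling and 155 and 161 after removal of the length trend. The salivary glue gene Sgs7 had 248, 312, 292 and 155.6 scaled FPKM at 0.7 M, against 215, 43.2, 207 and 168 at 0.15 M, and did not pass the test (change 0.85 ± 0.46, adjusted p = 0.16). In cg females it was at 0.832 to 1.74 at 0.7 M, against 17.1 to 302 at 0.15 M, and the difference was 6.46 ± 1.15 (adjusted p = 0.0022). CG7606 and CG7587 differed in the same way, by 5.19 ± 0.80 (adjusted p = 0.00087) and 4.93 ± 1.19 (adjusted p = 0.011), as did CG12310, which rose in 60100 larvae (1.76 ± 0.54, adjusted p = 0.016) and was listed at 0 in all 3 libraries of cg females at 0.7 M (4.21 ± 0.80, adjusted p = 0.0032). For CG12310 in 60100 larvae the call was lost without 0.7 M library 2 or 3 or 0.15 M library 2 (adjusted p = 0.056 to 0.058).

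Lsp1gamma, CG1468 and CG31775 differed in the other direction. Lsp1gamma was at 1479 to 2207 at 0.7 M, against 126 to 357 at 0.15 M in cg females, a rise of 2.97 (adjusted p = 0.0016), and the difference was -3.56 ± 0.48 (adjusted p = 0.00042). CG1468, which fell in 60100 larvae to 3.53, 2.51, 2.57 and 4.03 scaled FPKM at 0.7 M, against 7.85, 6.16, 8.64 and 8.27 at 0.15 M (-1.08 ± 0.17, adjusted p = 6e-05), rose in cg females (1.57, adjusted p = 0.00056), with a difference of -2.64 ± 0.23 (adjusted p = 3.8e-05). CG31775 rose in both experiments, and in cg females it was at 591 to 716 at 0.7 M, against 42.4 to 51.1 at 0.15 M (difference -2.46 ± 0.26, adjusted p = 9.9e-05). Each of these 3 differences held in all 14 leave-outs. Of the gene lists, storage proteins had 0 higher and 10 lower differences of 19 tested and the secretory pathway 0 and 16 of 30. Chaperones of the endoplasmic reticulum had 0 and 8 of 11, and trehalose, glycogen and gluconeogenesis 0 and 8 of 12. Among all tested genes 4.93% had a higher and 16.5% a lower difference. In cg females 12 of 19, 23 of 30, 12 of 12 and 11 of 12 tested genes of these lists had risen, against 27.5% of all tested genes. The list counts are for the main scaling only, and the split over all genes moved with scaling. For fatty acid synthesis and NADPH supply 0 higher and 1 lower difference were called of 9 tested, and 7 of 9 rose in cg females.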

How the data were processed

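Fat body RNA of 62 samples was sequenced on an Illumina HiSeq after RiboZero treatment, per the labels' protocols. The authors deposited 1 table of FPKM values for 14659 genes, made with TopHat 1.3.2, Bowtie 0.12.7 and Cufflinks 1.1.0 on dm3, per the submitters' processing notes. It holds no read counts, so no count model could be used and depth was estimated only from the smallest values. From the values, libraries appear to have been scaled within each experiment so that a fixed number of genes reached 1 (2464 in each 60100 control library), a step that no source used here states. Of 61 columns, 12 were not used because their headings do not match the labels of any single sample, and the 31 columns of the 60100 experiment were matched to groups only, since the headings of its controls carry no replicate number.

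Values were tested as log2 (scaled FPKM + 1) with limma 3.58.1 (R 4.3.3; empirical Bayes with a mean-variance trend, two-sided, Benjamini-Hochberg adjustment over all genes tested, threshold 0.05), for genes with a mean of at least 1 over all libraries in the fit, or, for differences between experiments, over the 0.7 M and 0.15 M control libraries of each. The fit of the diet effect held the 31 libraries of 8 groups, RNAi groups included, which share 1 estimate of the spread. With 4 libraries against 4, an exact permutation test of a single gene cannot go below p = 0.029.

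Genes are named by rule: up to 6 called members of each of 46 lists by size of change (the 2 with the highest mean where none was called), the 20 largest rises and 20 largest falls whose mean reached 5 in a diet and whose diets did not overlap, the 8 largest differences between experiments in each direction, and the 10 most abundant genes. Some genes that overlap a named gene, other enzymes of ecdysone synthesis and genes shared by all 3 experiments were chosen after their values were seen. The comparison, the lists (12 of other cell types, 1178 of 1185 members found) and the tests were chosen with earlier results of these data known. Neighbouring genes and transcript lengths come from a gene annotation of another build, and current symbols from a RefSeq table. Positions in that annotation are used only for overlaps. Whether the authors' counting used strand is not given in the sources used here. The script was tested on simulated data with known changes.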

Additional observations from a re-analysis of the deposited data

Results flagged for a closer look

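Among 388 sets of 4 libraries (each named gene in each diet), 23 held 1 library whose gap to the nearest other exceeded Dixon's 95% critical value for 4 samples. Among unselected, independent sets about 1 in 20 would be marked. These sets come from genes named partly for separated diets and are not independent, so the total cannot be judged against that rate. Of the 23, 21 fell in library 2 of a diet. CG31775 and CG42586, which count as 1 signal, were both marked there in each diet. Levels in scaled FPKM are given with the range of the other 3 libraries of the same diet.

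In 0.7 M library 2 the genes were desat1 (24.4, others 30.6 to 31.4), CG16836 (9.002, others 5.25 to 5.61), CG15068 (16.8, others 3.53 to 4.47), CG10992 (27.6, others 20.5 to 21.7) and Pcp (121, others 52.7 to 57.8). The others there were CG3348 (15.5, others 19.1 to 19.7), DMG6-MB6.chr3L.30.005 (136, others 40.7 to 42.9), CG31775 (1193, others 986 to 1010.0), CG42586 (1033, others 853 to 874) and Lsp1beta (1163, others 2282 to 2460.5). In 0.15 M library 2, the immune genes and sad stood above the group, as CG15067 (3.15, others 0.615 to 1.01), IM3 (8.57, others 1.08 to 1.64), PGRP-SC2 (121, others 29.3 to 33.3), TotC (21.6, others 0.835 to 2.14) and sad (6.78, others 1.57 to 1.84). In the same library betaCop (3.66, others 3.16 to 3.23) was high as well, and 5 other genes were low, namely Pros28_1 (4.86, others 6.38 to 6.58), RpS14b (53.7, others 68.9 to 71.03), Act57B (2.395, others 4.16 to 4.504), CG31775 (269, others 468 to 481) and CG42586 (233, others 405 to 416). In 0.7 M library 4 it was CG34166 (4794, others 5318 to 5375), and in 0.15 M library 4 Rab2 (6.404, others 2.33 to 2.67). The reason was not tested.

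The diet effect differed between experiments, by the test of the difference in limma, for these genes. The log2 change in 60100 larvae minus that in r4 w1118 larvae was positive for Jon65Aiv (6.19), Jon65Aiii (5.19), CG14302 (4.74), Jon25Bi (4.46), yip7 (4.34), CG31789 (3.48), CG7953 (3.19) and alphaTry (2.79). It was negative for DMG6-MB6.chr3L.30.005 (-3.75), CoII (-3.63), CoI (-2.42), noncoding_1263 (-2.38), Rab2 (-1.94), CG9836 (-1.87), Ufd1-like (-1.57) and Cyp4e3 (-1.47). These differences held in between 4 (yip7) and 14 (Ufd1-like) of 14 leave-outs. Set against cg females, the difference was positive for Sgs7 (6.46), CG7606 (5.19), CG7587 (4.93), Jon65Aiv (4.79), CG12310 (4.21), Jon65Aiii (3.86), Sgs8 (3.69) and CG14302 (3.67). It was negative there for Lsp1gamma (-3.56), AttB (-2.79), DptB (-2.74), Dpt (-2.73), CG1468 (-2.64), CG31775 (-2.46), CG42586 (-2.45) and l(1)G0320 (-2.36). With median-ratio scaling AttB, DptB and Dpt lost this call (adjusted p = 0.08, 0.056 and 0.081). Of 14 leave-outs AttB kept it in 3, DptB in 6 and Dpt in 5. Jon65Aiii kept its difference from cg females in 4, Jon65Aiv in 5, CG14302 in 6 and Sgs8 in 10, and the others kept theirs in all 14.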

How the results depend on the processing

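The 784 genes called in 60100 larvae became 2522 of 9851 with no filter on low values (690 higher, 1832 lower), 264 of 857 with a mean of at least 5, 439 with the 8 libraries fitted alone, 105 with the muscle covariate and 480 without both library 2s. Leaving out single libraries gave 515 to 1003. A pseudocount of 0.1 (773), no mean-variance trend (776), median-ratio scaling (885) and removal of the length trend (806) stayed within 1.5 times. The 37 differences from r4 w1118 became 190 with no filter, 23 with a mean of at least 5 and 97 without both library 2s, and 1 to 77 with single libraries left out. The count was 1 without 0.7 M library 1 of the 60100 experiment, w1118 0.7 M replicate 2 or w1118 0.15 M replicate 3. The 379 differences from cg females became 953 with no filter, 156 with a mean of at least 5 and 252 with median-ratio scaling, and 262 to 455 with single libraries left out. The causes were not tested.

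Of the 169 named genes that were called, 168 kept the call with a pseudocount of 0.1, 161 with no filter, 154 with median-ratio scaling, 153 with the length trend removed, 91 without both library 2s, and 115 to 167 with single libraries left out. With the 8 libraries alone it was 105 of 165, and with the muscle covariate 29 of 163. There 9 changes had the opposite sign, none of them called: CG4169 (-0.088), RFeSP (-0.064), CG3731 (-0.036), CG6020 (-0.097), RpS14b (-0.14), eIF-4E (0.0088), Ahcy13 (-0.047), Cpr78E (-0.12) and Cpr60D (-0.075).

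No paired analysis was possible because the columns of the 8 libraries of 60100 controls carry no replicate number. A covariate for the replicate sets in the labels could not be run for the same reason. The files hold no counts, so levels near 1 rest on few fragments of unknown exact number, and changes of low genes are understated on the log2 (value + 1) scale.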
